A study of Solanum lycopersicum with 39 samples.

Results

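Tonoplast intrinsic proteins are the aquaporins of the vacuolar membrane. The 8 tomato genes described here (Solyc06g074820, Solyc06g075650, Solyc10g083880, Solyc03g120470, Solyc06g060760, Solyc06g072130, Solyc03g019820 and Solyc08g066840) are a list of tonoplast intrinsic protein genes given by gene identifier, and each was looked up by its identifier, version suffix ignored, among the 34075 genes listed in each of 2 expression tables. All 8 were listed in both. The tables hold identifiers only, so the family membership was taken from the list, and the genes are called by their identifiers because no annotation used here gave them a name of their own. None of their measured values was used to choose them.

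Aquaporins of this family form pores in the tonoplast, the membrane around the vacuole, and let water and small uncharged solutes such as urea, ammonia and hydrogen peroxide pass between cytosol and vacuole. The vacuole holds most of the water of a mature leaf cell, and the flow across its membrane buffers the cytosol against sudden changes in volume and turgor. In Arabidopsis the members of the family differ in the organs and cell types that express them and in the solutes that they conduct besides water.

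RNA was sequenced from leaves of tomato cultivar M82 given by the labels as 38 days old, grown at 25 °C and 70% humidity with 16 h of light a day. In the drought series, 18 libraries came from plants sampled on days 1, 2, 3, 4 and 5 without water or 1 day after re-watering (D-Recovery), and 3 came from day 0, when the soil had dried to about 80% of its water capacity. In the heat series, 15 libraries came from plants kept at 42 °C and 90% humidity for 2, 4, 12 or 24 h or returned to growth conditions for 1 day after 24 h of heat (Heat-Recovery), and 3 came from plants at 0 h. Each group had 3 libraries, all plants were of the same cultivar with no transgene, temperature and humidity were raised together, and no untreated plants were sampled at the later times, so the treatment cannot be told apart from the passage of time.

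The values are FPKM, fragments counted per transcript length and per library size, which compare genes per unit of length. They summed to between 694973 and 815091 in the drought libraries and between 559548 and 895476 in the heat libraries. A gene at 1 FPKM or more in at least 3 libraries of a table was tested there with limma on log2(FPKM + 1), in 1 fit over all groups of the table, and was called when its adjusted p was 0.05 or less and its log2 fold change was 1 or more in size. This left 19963 genes in the drought table and 18923 in the heat table. The filter passed 7 of the 8 tonoplast aquaporin genes in the drought table and 5 in the heat table. The treatments were visible in genes outside the family: HSP17.6 (Solyc08g062437), a small heat shock protein, averaged 767 ± 173 FPKM at 2 h of heat and 0.690 ± 0.175 FPKM at 0 h, and NCED3 (Solyc07g056570), an enzyme of abscisic acid synthesis, averaged 278 ± 21.7 FPKM on drought day 1 and 97.1 ± 5.75 FPKM on day 0 (SD, n = 3 each). Of the 4 heat-response genes checked, 2 were called higher at 2 h, and with median-ratio scaling HSP70-1 (Solyc09g011030) was called as well (log2 fold change 1.39, adjusted p = 0.0471). Of the 2 abscisic acid genes 1, NCED3, was called higher on day 1. The other, ABF3 (Solyc01g108080), went the other way, at 8.43 ± 1.03 FPKM on day 1 and 16.5 ± 3.99 FPKM on day 0 (SD, n = 3 each). It was not called on day 1 (log2 fold change -0.87, adjusted p = 0.00807). It was called lower on day 2 (-1.14, adjusted p = 0.000687) and day 3 (-1.13, adjusted p = 0.000619), and not on days 4 and 5. The shallowest library, day 3 replicate 2 of drought, had 13889 genes listed at 0, against 10819 to 12054 in the other drought libraries. The leaf label was met by the 22 light-harvesting antenna genes, which were all above 1 FPKM in every library of day 0 and of 0 h. Their summed level moved with both treatments, at 1174 to 5326 FPKM on drought day 5 and 1533 to 5113 FPKM at 24 h of heat, against 31171 to 38194 FPKM on day 0 and 39019 to 59583 FPKM at 0 h, and its part in the changes below was not tested. In RNA from whole leaves, fewer cells of a type and less RNA per cell cannot be told apart.

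In leaves of day 0 the family was dominated by a single gene. Solyc06g074820 averaged 803 ± 206 FPKM (SD, n = 3), place 97 among the 34075 listed genes, and made up 69.4 ± 4.76% of the summed FPKM of the 8 genes. Solyc08g066840 followed with 138 ± 10.8 FPKM, then Solyc06g060760 with 98.5 ± 41.5 FPKM and Solyc03g120470 with 94.3 ± 25.6 FPKM. The libraries of Solyc06g060760 overlapped those of both Solyc08g066840 and Solyc03g120470, so its place between them was not settled by the spread. Solyc06g075650 was lower at 15.7 ± 2.73 FPKM. Solyc06g072130 and Solyc03g019820 were low at 1.24 ± 0.133 and 0.706 ± 0.0822 FPKM, and Solyc10g083880 was listed at 0 in all 3 libraries. Leaves at 0 h in the heat series, which were normalized separately, had Solyc06g074820 first again at 804 ± 221 FPKM, with Solyc03g120470 (101 ± 11.7 FPKM) and Solyc08g066840 (100.3 ± 14.6 FPKM) next and overlapping. There Solyc06g060760 averaged 14.7 ± 2.04 FPKM, Solyc06g075650 6.04 ± 1.65 FPKM, Solyc06g072130 0.0407 ± 0.0354 FPKM and Solyc03g019820 0.0163 ± 0.0283 FPKM. The untreated groups of the 2 tables thus shared their leading gene and differed in the levels of other members, among them Solyc06g060760, Solyc06g072130 and Solyc03g019820. For the last 2 the values were low in both tables. These differences were not tested because they lie between tables.

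**Figure D1:**
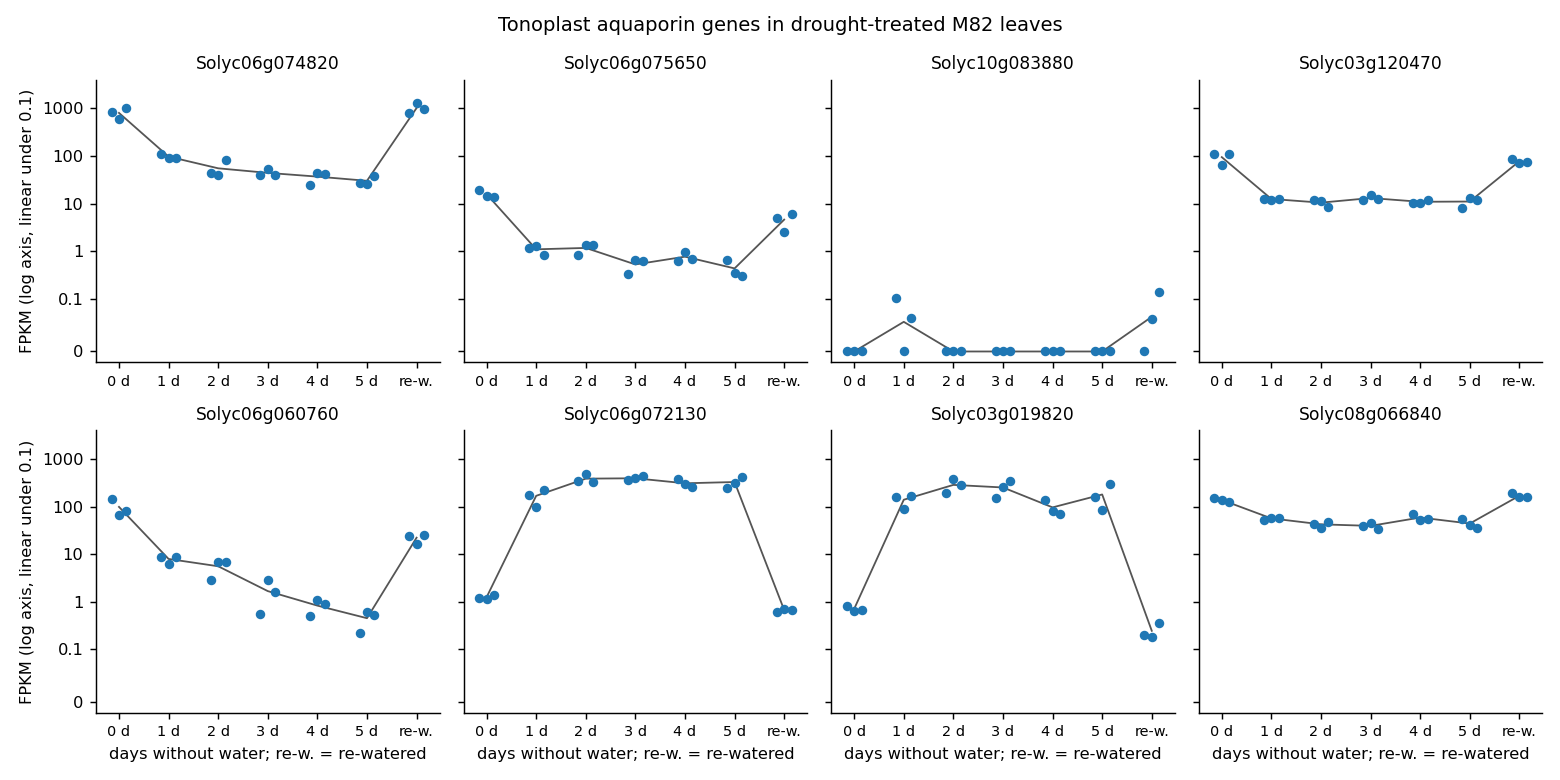
FPKM of the 8 tonoplast aquaporin genes in the drought series, on a log axis that is linear under 0.1 FPKM, over days without water and 1 day after re-watering; points are the 3 libraries of a group and the line joins the group means. Solyc06g072130 and Solyc03g019820 stand at 1.14 to 1.39 and 0.639 to 0.798 FPKM on day 0 and at 68.5 FPKM or more in every library of days 1 to 5, while Solyc06g074820, Solyc06g075650, Solyc03g120470, Solyc06g060760 and Solyc08g066840 are lower on those days than on day 0.

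The family split within 1 day of water withdrawal. On day 1, Solyc06g072130 and Solyc03g019820 were higher than on day 0, Solyc06g074820, Solyc06g075650, Solyc03g120470, Solyc06g060760 and Solyc08g066840 were lower, and Solyc10g083880 was not tested. All 7 tested genes were called, 2 of them higher and 5 lower, against 6.79% of all tested genes called higher and 8.27% called lower. The median log2 fold change of the 7 genes was -2.79, and that of all genes tested was 0.07. The same genes were called, in the same directions, on each of days 2 to 5. The background shares were 11% higher and 12.9% lower on day 2, 12.9% higher and 14.8% lower on day 3, 14.6% higher and 15.2% lower on day 4, and 13.5% higher and 17.7% lower on day 5. On no day did the libraries of a called gene overlap those of day 0. How many of all genes were without overlap was not counted. HSP70-1 was not called on day 1 (log2 fold change 0.22, adjusted p = 0.0565) and did not overlap day 0 there either. The 5 comparisons share the day 0 libraries and are not independent of each other. The median of the 7 genes was -2.95 on day 2, -2.73 on day 3, -2.97 on day 4 and -2.97 on day 5, while that of all genes was 0.13 on day 2, 0.17 on day 3, 0.23 on day 4 and 0.16 on day 5. With each library rescaled by its median ratio to the average library, the median of all genes was between -0.05 and -0.01 on these days, and all genes were called higher and lower in 7.81% and 16.4% on day 2, 9.09% and 18.1% on day 3, 9.28% and 19.2% on day 4, and 10.2% and 20.7% on day 5. On day 1 these shares were 5.71% and 10%. All 7 genes were also called in that scaling on every day. Solyc03g019820 reached 1 FPKM on days 1 to 5 alone and so passed the filter through the groups in which it was high, but the same 7 genes were called on each day in a fit of 26490 genes without the filter. Solyc10g083880 was also in that fit and was not called on any day. The shares of all genes called in that fit are not given here.

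The 2 genes that rose were the least abundant of the detected members on day 0. Solyc06g072130 had 178, 98.2 and 228 FPKM in the libraries of day 1, 351, 477 and 332 FPKM on day 2 and 356, 389.8 and 434 FPKM on day 3. It had 376, 294 and 256 FPKM on day 4 and 251, 317 and 417 FPKM on day 5, against 1.20, 1.14 and 1.39 FPKM on day 0. The lowest drought library, at 98.2 FPKM, was far above the highest day 0 library, at 1.39 FPKM. The ratio of means to day 0 was 136 on day 1, 312 on day 2, 317 on day 3, 249 on day 4 and 265 on day 5 (log2 fold change 6.16, SE 0.24, adjusted p = 2.28e-11 on day 1 and 7.46, adjusted p = 1.11e-12 on day 3). Among the 19963 genes tested its log2 fold change was number 5 from the top on day 1, number 3 on day 2 and number 9 on day 5. By level it stood at place 17997 of all listed genes on day 0 and at place 189 on day 3.

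Solyc03g019820 followed the same outline with a wider spread. It had 162, 88.6 and 168 FPKM on day 1, 198, 382 and 278 FPKM on day 2 and 153, 253 and 351 FPKM on day 3. On day 4 it had 139, 81.0 and 68.5 FPKM and on day 5 158, 83.1 and 298 FPKM, against 0.798, 0.639 and 0.682 FPKM on day 0. The drought libraries did not overlap those of day 0, but they varied among themselves, most of all on day 5. The ratio of means was 197 on day 1, 405 on day 2, 357 on day 3, 136 on day 4 and 254 on day 5 (log2 fold change 6.31, SE 0.40, adjusted p = 4.1e-09 on day 1 and 7.34, adjusted p = 3.23e-10 on day 2). Within a library, Solyc06g072130 was the more abundant of the pair in every library of days 1 to 5, by a median factor of 1.11 (1.10 to 1.36) on day 1 and 3.63 (2.71 to 3.74) on day 4, where the brackets give the lowest and highest library.

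The gene that led in untreated leaves fell most in absolute level. Solyc06g074820 had 112, 89.7 and 88.7 FPKM on day 1, 43.3, 39.3 and 82.1 FPKM on day 2 and 39.4, 53.3 and 39.5 FPKM on day 3. It had 24.6, 44.8 and 40.8 FPKM on day 4 and 27.1, 25.5 and 37.4 FPKM on day 5, against 829, 585 and 994 FPKM on day 0. The highest drought library, at 112 FPKM, was far below the lowest day 0 library, at 585 FPKM. By the ratio of means it was 8.3-fold lower on day 1 (log2 fold change -3.01, SE 0.28, adjusted p = 3.51e-07) and 26.7-fold lower on day 5 (log2 fold change -4.68, SE 0.28, adjusted p = 4.97e-10).

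Among the members Solyc06g060760 had the largest fold decrease by the ratio of means on days 2 to 5, and Solyc06g075650 on day 1. Solyc06g060760 had 8.79, 6.22 and 8.76 FPKM on day 1, 2.85, 7.00 and 6.83 FPKM on day 2 and 0.539, 2.84 and 1.64 FPKM on day 3. It had 0.489, 1.11 and 0.883 FPKM on day 4 and 0.222, 0.608 and 0.520 FPKM on day 5, against 146, 67.3 and 82.6 FPKM on day 0. The group mean was lower on each later day, and on day 5 the highest library was at 0.608 FPKM. The ratio of means was 12.4-fold lower on day 1 (log2 fold change -3.42, SE 0.34, adjusted p = 6.35e-07), 59-fold lower on day 3 and 219-fold lower on day 5 (log2 fold change -6.03, SE 0.34, adjusted p = 2.44e-10). Its day 5 log2 fold change was number 27 from the bottom of the genes tested. Solyc03g120470, which overlapped Solyc06g060760 in level on day 0, had nearly all of its decrease on day 1. It had 12.7, 12.0 and 12.7 FPKM on day 1 and 8.15, 13.2 and 11.6 FPKM on day 5, against 109.5, 64.8 and 109 FPKM on day 0. It was 7.58-fold lower on day 1 (log2 fold change -2.79, SE 0.19, adjusted p = 8.42e-09) and 8.58-fold lower on day 5 (log2 fold change -2.97, SE 0.19, adjusted p = 7.7e-10). The within-library ratio of Solyc03g120470 to Solyc06g060760 had a median of 0.963 (0.752 to 1.32) on day 0, 1.45 (1.45 to 1.92) on day 1, 7.65 (5.23 to 21.7) on day 3 and 22.4 (21.7 to 36.6) on day 5.

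Solyc06g075650 and Solyc08g066840 marked the low and the high end of the remaining genes. Solyc06g075650 had 1.16, 1.27 and 0.828 FPKM on day 1 and 0.648, 0.348 and 0.300 FPKM on day 5, against 18.9, 14.3 and 14.0 FPKM on day 0. It was 14.4-fold lower on day 1 (log2 fold change -2.99, SE 0.21, adjusted p = 1.45e-08) and 36.4-fold lower on day 5 (log2 fold change -3.54, SE 0.21, adjusted p = 4.51e-10), and since its drought values lay around the added 1 FPKM, the log2 fold change understates this ratio. Solyc08g066840 changed least. It had 53.2, 57.7 and 58.5 FPKM on day 1, 39.4, 44.1 and 34.4 FPKM on day 3 and 54.9, 41.2 and 35.9 FPKM on day 5, against 148, 138 and 127 FPKM on day 0. Its fold decrease lay between 2.34 on day 4 (log2 fold change -1.22, SE 0.15, adjusted p = 2.39e-06) and 3.51 on day 3 (log2 fold change -1.79, SE 0.15, adjusted p = 3.74e-08), and the highest library of any drought day was at 69.2 FPKM. Solyc10g083880 had 0.105, 0 and 0.0631 FPKM on day 1 and was listed at 0 in every library of days 2 to 5, and no fold change is given for it.

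**Figure D2:**
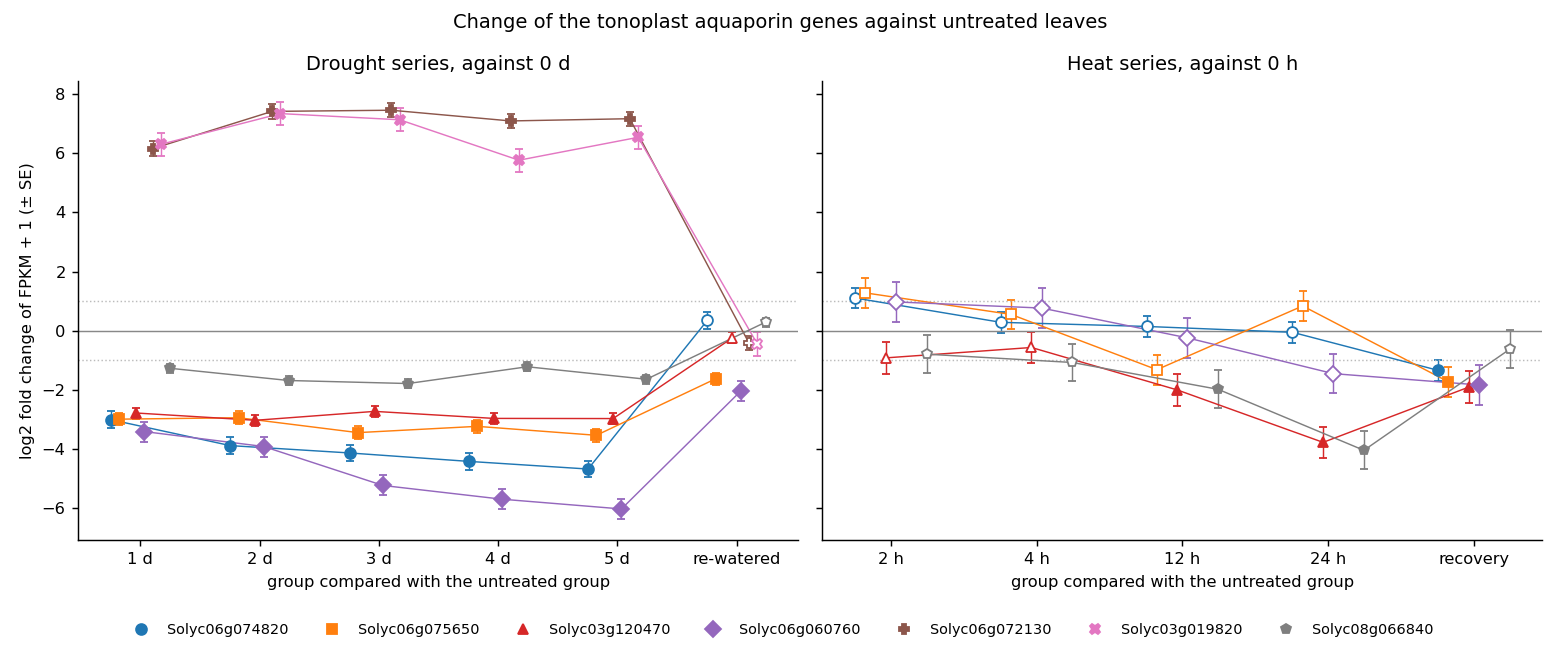
Log2 fold change of FPKM + 1 (points, ± SE) of the tested tonoplast aquaporin genes against the untreated group, for 7 genes in the drought series on the left and 5 genes in the heat series on the right; filled symbols passed the test, open symbols did not, and dotted lines mark a log2 fold change of 1 in size. On the left all symbols of days 1 to 5 are filled, with Solyc06g072130 and Solyc03g019820 between 5.77 and 7.46 and the other 5 genes between -1.22 and -6.03, and on the right no symbol at 2 h or 4 h is filled.

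The share of the day 5 difference that was present on day 1 differed between genes. The day 1 log2 fold change was 96.4% of that of day 5 for Solyc03g019820, 93.7% for Solyc03g120470, 85.9% for Solyc06g072130, 84.6% for Solyc06g075650, 77.3% for Solyc08g066840, 64.4% for Solyc06g074820 and 56.6% for Solyc06g060760. On the log ratio of means, with nothing added, the share was 46.8% for Solyc06g060760 and 74.3% for Solyc06g075650, the 2 genes below 1 FPKM on day 5, and between 64.4% and 95.4% for the other 5. Day 5 was therefore compared with day 1 as well, a comparison added after these values had been seen. Of the 7 genes, Solyc06g072130 was called higher and Solyc06g074820 and Solyc06g060760 lower, against 5.29% of all genes called higher and 10.3% lower. Solyc06g060760 had a log2 fold change of -2.62 (adjusted p = 1.49e-05) and Solyc06g074820 of -1.67 (adjusted p = 0.000165). Solyc06g072130 stood just past the fold threshold at 1.01 (adjusted p = 0.00263), and it fell below it at 0.94 with median-ratio scaling, at 0.67 without day 1 replicate 2 and at 0.83 without day 5 replicate 3. It also missed the threshold in a fit of these 2 groups alone (adjusted p = 0.0586). Solyc06g075650 had -0.55 (adjusted p = 0.0426), Solyc08g066840 -0.37 (adjusted p = 0.0549), Solyc03g120470 -0.19 (adjusted p = 0.432) and Solyc03g019820 0.23 (adjusted p = 0.659), and none of these 4 was called. With 0.1 FPKM added Solyc06g075650 was called lower, at -1.20 (adjusted p = 0.00845).

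The summed level of the family changed less than its make-up. The 8 genes together had 482 ± 113 FPKM on day 1, 787 ± 154 FPKM on day 2 and 594 ± 179 FPKM on day 5, against 1151 ± 245 FPKM on day 0 (SD, n = 3). Solyc06g072130 and Solyc03g019820 together made up 62.4 ± 8.77% of this sum on day 1, 86.5 ± 2.94% on day 3 and 84.8 ± 3.98% on day 5, against 0.173% on day 0. The share of Solyc06g074820 was 20.8% on day 1 and 5.13% on day 5, against 69.4 ± 4.76% on day 0. These shares describe the same values as above and were not tested.

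**Figure D3:**
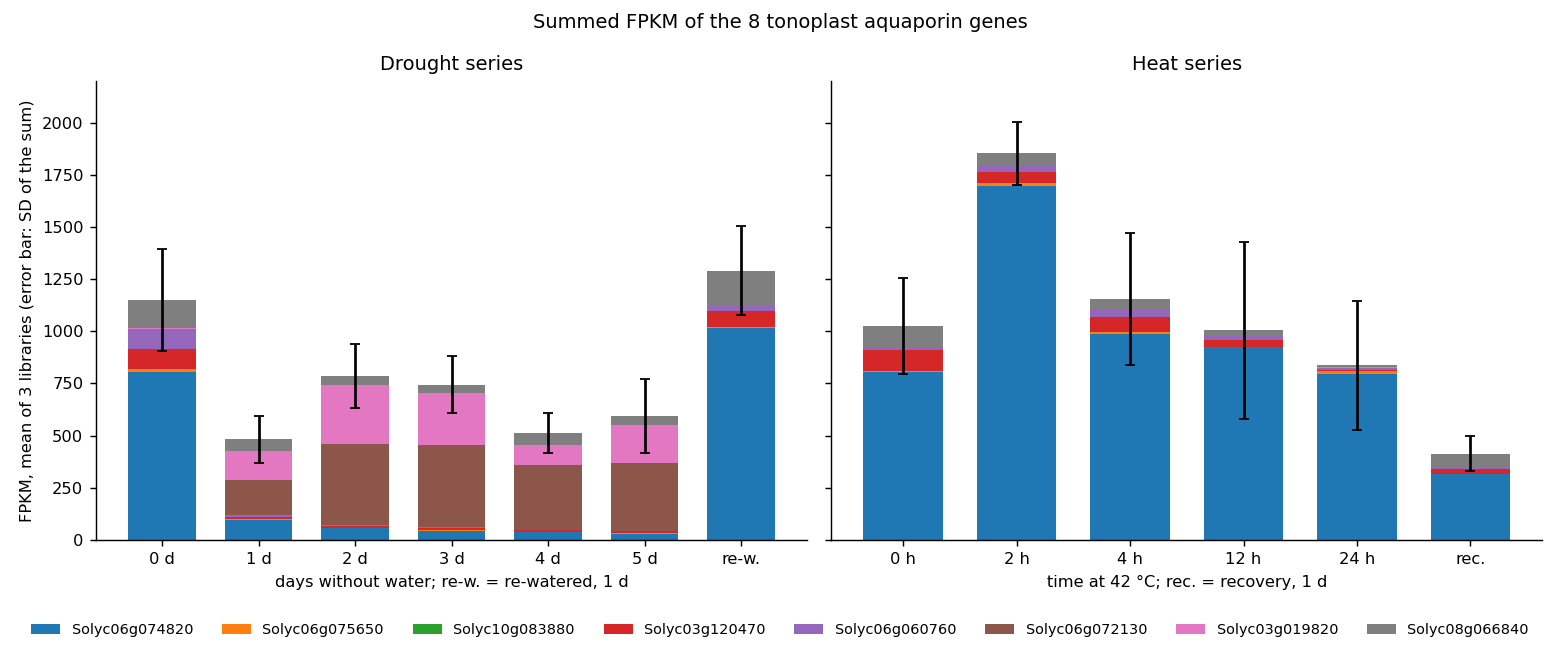
Summed FPKM of the 8 tonoplast aquaporin genes per group, as the mean of 3 libraries stacked by gene, with the SD of the sum as error bar, for the drought series on the left and the heat series on the right. On drought days 1 to 5 the stack is mostly Solyc06g072130 and Solyc03g019820, and in every other group it is mostly Solyc06g074820.

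After 1 day of re-watering all 7 tested genes had moved back. Against day 5, Solyc06g074820, Solyc06g075650, Solyc03g120470, Solyc06g060760 and Solyc08g066840 were called higher and Solyc06g072130 and Solyc03g019820 lower, where 17.4% of all genes were called higher and 12.6% lower. Solyc06g072130 had 0.619, 0.712 and 0.675 FPKM in re-watered leaves, against 251, 317 and 417 FPKM on day 5. Solyc03g019820 had 0.195, 0.184 and 0.355 FPKM in re-watered leaves, against 158, 83.1 and 298 FPKM on day 5. By the ratio of means these were decreases of 491-fold (log2 fold change -7.59, SE 0.24, adjusted p = 2.72e-13) and 735-fold (log2 fold change -7.00, SE 0.40, adjusted p = 1.79e-10). Solyc06g074820 had 791, 1272 and 987 FPKM in re-watered leaves and was 33.9 times its day 5 mean (log2 fold change 5.03, SE 0.28, adjusted p = 1.62e-10). The others were higher than on day 5 by 49.3-fold for Solyc06g060760, 10.6-fold for Solyc06g075650, 7.05-fold for Solyc03g120470 and 3.84-fold for Solyc08g066840.

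Re-watered leaves overlapped day 0 in Solyc06g074820 and Solyc03g120470, lay above it in Solyc08g066840 and lay below it in the other 4 tested genes. How many of all genes were without overlap was not counted here either. Against day 0, Solyc06g075650 and Solyc06g060760 were still called lower and no member was called higher, with background shares of 5.25% higher and 6.41% lower. Solyc06g060760 had 24.3, 16.7 and 25.5 FPKM in re-watered leaves, against 146, 67.3 and 82.6 FPKM on day 0, and was 4.44-fold lower (log2 fold change -2.05, SE 0.34, adjusted p = 0.000153). Solyc06g075650 had 5.05, 2.57 and 6.12 FPKM, against 18.9, 14.3 and 14.0 FPKM, and was 3.43-fold lower (log2 fold change -1.63, SE 0.21, adjusted p = 1.5e-05). The libraries of neither gene overlapped between the groups. Solyc06g074820 and Solyc03g120470 overlapped their day 0 libraries, with log2 fold changes of 0.35 (adjusted p = 0.371) and -0.24 (adjusted p = 0.339). Solyc08g066840 had 190.3, 157 and 159.7 FPKM in re-watered leaves, against 148, 138 and 127 FPKM on day 0, higher without overlap but not called, with a log2 fold change of 0.29 (adjusted p = 0.157). Solyc06g072130 and Solyc03g019820 ended below their day 0 libraries without overlap, at 0.619, 0.712 and 0.675 FPKM and 0.195, 0.184 and 0.355 FPKM, but did not pass the test with 1 FPKM added (log2 fold changes -0.42 and -0.46, adjusted p = 0.191 and 0.405). With 0.1 FPKM added, Solyc03g019820 was called at a log2 fold change of -1.26 (adjusted p = 0.0261). The summed level was 1291 ± 215 FPKM in re-watered leaves and 1151 ± 245 FPKM on day 0, and Solyc06g074820 held 78.1 ± 5.75% of it in re-watered leaves. The median of the 7 members was -0.42 against day 0 and 1.93 against day 5, and that of all genes was 0.05 and -0.09.

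In the heat series fewer members were called, of 5 tested against 7 in the drought series, and Solyc06g072130 and Solyc03g019820 were low. The 5 genes tested in both series had an SE of 0.35 to 0.67 in heat and 0.15 to 0.34 in drought. The count of calls therefore cannot rank the response to heat below that to drought, which was not tested. In the table as deposited the median gene tested had a negative log2 fold change against 0 h in every group: -0.21 for 2 h, -0.43 for 4 h, -0.17 after 12 h, -0.55 after 24 h and -0.53 after recovery. With median-ratio scaling these medians lay between -0.03 and 0.00, and values from that scaling are given where they change a call. In that scaling the shares of all genes called higher and lower were 3.05% and 2.21% for the 2 h group, 5.24% and 3.98% for 4 h, 10.2% and 12.2% after 12 h, and 17.9% and 19.6% after 24 h. The 12 h libraries held the lowest correlation within a group, at 0.889 over genes. The median log2 fold change of the 5 tested members was 0.97 for 2 h, 0.28 for 4 h, -1.32 after 12 h, -1.45 after 24 h and -1.73 after recovery.

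**Figure D4:**
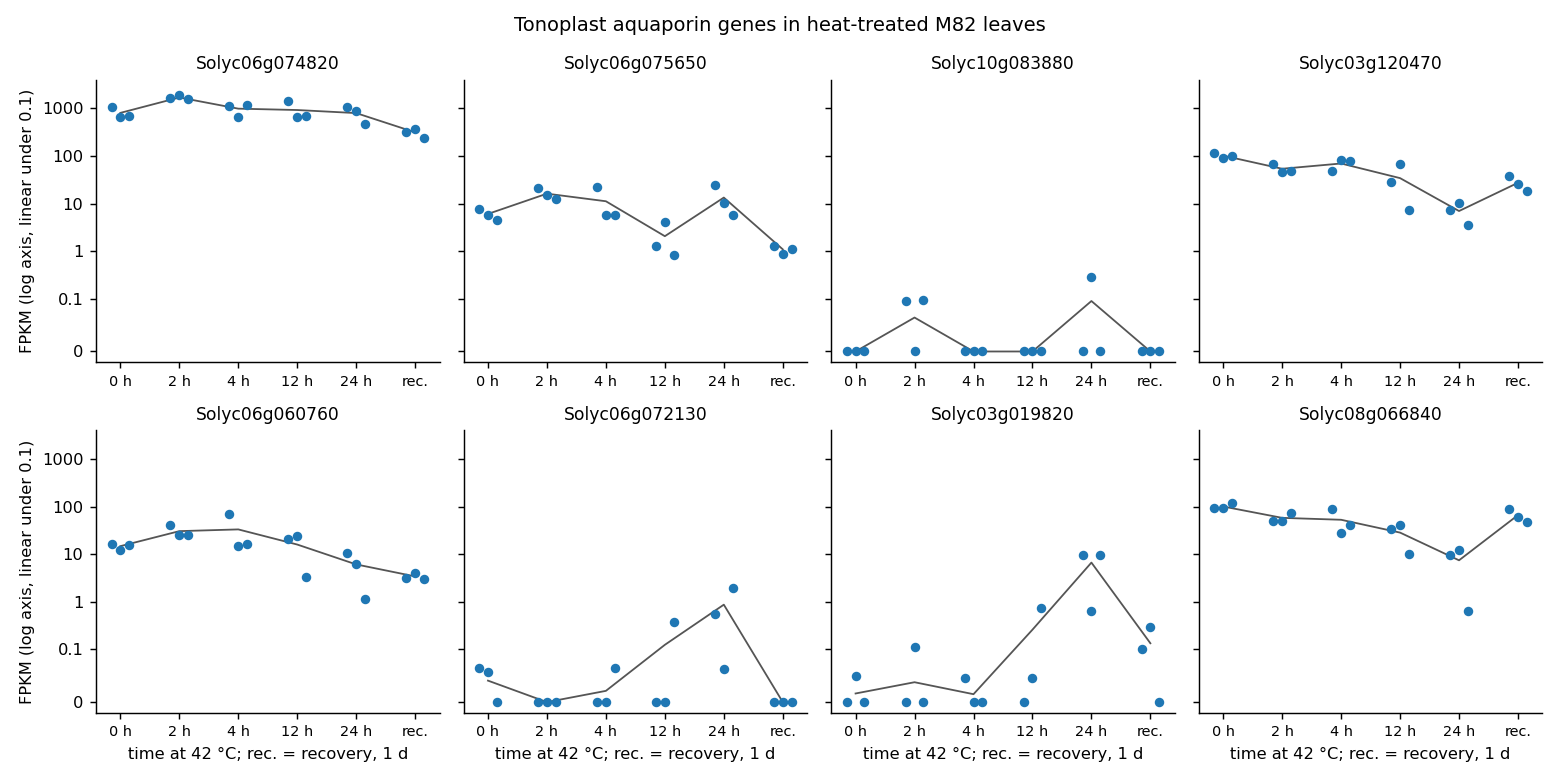
FPKM of the 8 tonoplast aquaporin genes in the heat series, on a log axis that is linear under 0.1 FPKM, over hours at 42 °C and after 1 day of recovery; points are the 3 libraries of a group and the line joins the group means. Solyc03g120470 and Solyc08g066840 reach their lowest levels at 24 h, Solyc06g074820 is at 244 FPKM or more in every library, and Solyc03g019820 exceeds 1 FPKM in 2 libraries of 24 h alone.

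At 2 h none of the 5 tested genes was called by limma, against 2.07% of all genes called higher and 3.49% called lower. Of the 5 genes, 2 had an unadjusted p under 0.05, and the share of all genes at that level was not counted. Solyc06g074820 had 1645, 1881 and 1559 FPKM at 2 h, against 1058, 657 and 697 FPKM at 0 h. The groups did not overlap, and the mean was 2.11 times that of 0 h (log2 fold change 1.10, SE 0.35, adjusted p = 0.069). This gene was called with median-ratio scaling, at 1.37 (adjusted p = 0.00829), and in a fit of the groups of 0 h and 2 h alone (adjusted p = 0.011). Solyc06g075650 had 20.7, 15.1 and 12.4 FPKM at 2 h, against 7.79, 5.81 and 4.52 FPKM at 0 h, again without overlap (log2 fold change 1.28, SE 0.50, adjusted p = 0.136), and was called in the fit of these 2 groups alone (adjusted p = 0.00798). Solyc06g060760 averaged 30.4 ± 9.09 FPKM at 2 h and 14.7 ± 2.04 FPKM at 0 h, and its log2 fold change was 0.97 (adjusted p = 0.399). Solyc03g120470 averaged 53.7 ± 12.7 FPKM at 2 h and 101 ± 11.7 FPKM at 0 h (log2 fold change -0.92, adjusted p = 0.312), and Solyc08g066840 averaged 57.9 ± 13.4 FPKM at 2 h and 100.3 ± 14.6 FPKM at 0 h (log2 fold change -0.80, adjusted p = 0.477).

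At 4 h none of the 5 genes was called, against 2.47% of all genes called higher and 13% called lower, and none of the 5 had an unadjusted p under 0.05. The share of all genes at that level was not counted here either. Solyc06g074820, Solyc06g075650 and Solyc06g060760 overlapped their 0 h libraries. Solyc03g120470 had 49.0, 80.4 and 78.7 FPKM at 4 h, all below its 0 h libraries (log2 fold change -0.57, adjusted p = 0.437). Solyc06g060760 had 68.5, 14.6 and 16.2 FPKM at 4 h, so that 1 library set its mean of 33.1 FPKM. Solyc08g066840 had 90.4, 27.8 and 40.2 FPKM at 4 h, against 92.1, 91.7 and 117 FPKM at 0 h, and its log2 fold change was -1.08 (adjusted p = 0.212). It was called (adjusted p = 0.0248) when 12 h replicate 3 and 24 h replicate 3 were left out of the fit.

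After longer heat 2 genes were called lower. At 12 h Solyc03g120470 and Solyc08g066840 were called lower and none higher, against 8.42% of all genes called higher and 15.7% lower, and at 24 h the same 2 genes were called lower and none higher, against 9.31% and 33.1%. Among the 18923 genes tested, the 24 h log2 fold changes of Solyc03g120470 and Solyc08g066840 were number 336 and number 255 from the bottom. Solyc03g120470 had 27.8, 67.4 and 7.31 FPKM at 12 h and 7.29, 10.1 and 3.45 FPKM at 24 h, against 114, 91.4 and 98.7 FPKM at 0 h. All treated libraries were below those of 0 h, and the 12 h libraries differed among themselves more than the 0 h libraries did. The mean was 2.97-fold lower at 12 h (log2 fold change -2.01, SE 0.54, adjusted p = 0.00843) and 14.6-fold lower at 24 h (log2 fold change -3.78, SE 0.54, adjusted p = 2.56e-05). Leaving out single libraries moved the 12 h log2 fold change between -2.72, without 12 h replicate 2, and -1.20 (adjusted p = 0.0411), without 12 h replicate 3.

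Solyc08g066840 had 33.1, 41.8 and 10.3 FPKM at 12 h and 9.37, 12.2 and 0.637 FPKM at 24 h, against 92.1, 91.7 and 117 FPKM at 0 h. Here too no library overlapped those of 0 h, and replicate 3 of both 12 h and 24 h was the lowest of its group. The mean was 3.53-fold lower at 12 h (log2 fold change -1.98, SE 0.64, adjusted p = 0.024) and 13.5-fold lower at 24 h (log2 fold change -4.05, SE 0.64, adjusted p = 6.73e-05). The 12 h call was lost without any single 0 h library (adjusted p between 0.0502 and 0.073) and without 12 h replicate 3 (log2 fold change -1.40, adjusted p = 0.129), and with 0.1 FPKM added (adjusted p = 0.0591). The 24 h value was -3.10 (adjusted p = 0.000165) without 24 h replicate 3.

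The other 3 tested genes were not called at 12 h or 24 h. Solyc06g074820 had 1410.3, 668 and 691 FPKM at 12 h and 1044, 865 and 477 FPKM at 24 h, overlapping the 0 h libraries at both times, with log2 fold changes of 0.14 (adjusted p = 0.788) and -0.06 (adjusted p = 0.903). The sign at 24 h depended on the scaling, since it was 0.62 (adjusted p = 0.0822) with the median ratio. Solyc06g075650 had 1.30, 4.03 and 0.824 FPKM at 12 h and 24.2, 10.1 and 5.72 FPKM at 24 h, against 7.79, 5.81 and 4.52 FPKM at 0 h. It was lower than 0 h without overlap at 12 h (log2 fold change -1.32, adjusted p = 0.0514) and overlapped 0 h at 24 h (log2 fold change 0.84, adjusted p = 0.165). With median-ratio scaling the 24 h value became 1.42 (adjusted p = 0.0265) and was called, and at 12 h the gene was called without 12 h replicate 2 (-1.75, adjusted p = 0.0158), with 0.1 FPKM added (-1.77, adjusted p = 0.0321) and in a fit of the 2 groups alone (adjusted p = 0.0381). Solyc06g060760 had 20.7, 23.8 and 3.27 FPKM at 12 h, overlapping the 0 h libraries (log2 fold change -0.25, adjusted p = 0.808). At 24 h it had 10.8, 6.25 and 1.16 FPKM, all below the 0 h libraries, with a log2 fold change of -1.45 (adjusted p = 0.0722). Without 24 h replicate 1 it was -1.98 (adjusted p = 0.0285).

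Solyc06g072130 and Solyc03g019820, which dominated the family in drought, did not pass the filter on low values in the heat table. Solyc03g019820 had 0, 0.0466 and 0.728 FPKM at 12 h and 9.76, 0.650 and 9.52 FPKM at 24 h, against 0, 0.0490 and 0 FPKM at 0 h. Among the 18 heat libraries, replicates 1 and 3 of 24 h alone exceeded 1 FPKM. By the ratio of means Solyc03g019820 was at 407 times its 0 h level at 24 h, without overlap. That ratio rests on a 0 h mean of 0.0163 FPKM, with 2 libraries at 0. In a fit of 25149 genes without the filter it was called higher at 24 h (log2 fold change 2.49, SE 0.50, adjusted p = 0.00092), and lower in recovery than at 24 h (-2.34, adjusted p = 0.00218). Solyc06g072130 had 0.561, 0.0634 and 1.97 FPKM at 24 h, against 0.0647, 0.0573 and 0 FPKM at 0 h, and its log2 fold change of 0.71 (adjusted p = 0.0266) in that fit was below the fold threshold. The highest heat library of either gene was at 9.76 FPKM, and the lowest library of drought days 1 to 5 was at 68.5 FPKM, a contrast between tables that was not tested. Solyc10g083880 was detected in 3 of the 18 heat libraries, at up to 0.286 FPKM.

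After 1 day of recovery from heat the leading gene had its lowest group mean of the heat series. Solyc06g074820 had 320.1, 376 and 244 FPKM in recovery, against 1058, 657 and 697 FPKM at 0 h, without overlap, and was 2.57-fold lower (log2 fold change -1.35, SE 0.35, adjusted p = 0.00748). Solyc06g075650 (log2 fold change -1.73, adjusted p = 0.0133), Solyc03g120470 (log2 fold change -1.91, adjusted p = 0.0111) and Solyc06g060760 (log2 fold change -1.84, adjusted p = 0.0391) were also called lower than at 0 h, so that 4 of the 5 genes were lower and none higher, against 23.3% of all genes called lower and 1.23% called higher. Solyc08g066840 had 89.4, 60.6 and 48.5 FPKM in recovery, against 92.1, 91.7 and 117 FPKM at 0 h, and was not called (log2 fold change -0.63, adjusted p = 0.459). With median-ratio scaling 7.8% of all genes were called lower and 5.83% higher, and Solyc03g120470 was the 1 member called, at -1.26 (adjusted p = 0.0352). Solyc06g074820 then had -0.68 (adjusted p = 0.0873), Solyc06g075650 -1.25 (adjusted p = 0.0737), Solyc06g060760 -1.26 (adjusted p = 0.141) and Solyc08g066840 0.02 (adjusted p = 0.984). The call of Solyc06g060760 was also lost without each of the 6 libraries of the 2 groups in turn (adjusted p between 0.0648 and 0.109) and in the fit without the filter (adjusted p = 0.0643), and that of Solyc03g120470 without recovery replicate 3 (adjusted p = 0.0578).

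Against 24 h, Solyc08g066840 and Solyc03g120470 were called higher in recovery and Solyc06g074820 and Solyc06g075650 lower, where 16% of all genes were called higher and 16.4% lower. Solyc08g066840 was 8.92 times its 24 h mean (log2 fold change 3.42, SE 0.64, adjusted p = 0.000459) and Solyc03g120470 3.92 times (log2 fold change 1.87, SE 0.54, adjusted p = 0.00918). Without 24 h replicate 3 the log2 fold change of Solyc08g066840 was 2.47 (adjusted p = 0.00141) and that of Solyc03g120470 was 1.50, with an adjusted p that rounds to 0.05 and did not pass. Solyc06g075650 was 12.3-fold lower (log2 fold change -2.57, SE 0.50, adjusted p = 0.000651), with 1.29, 0.880 and 1.09 FPKM in recovery against 24.2, 10.1 and 5.72 FPKM at 24 h, and Solyc06g074820 was 2.54-fold lower (log2 fold change -1.29, SE 0.35, adjusted p = 0.00681). Solyc06g060760 overlapped between these groups (log2 fold change -0.38, adjusted p = 0.665). All 4 calls were also made with median-ratio scaling, where 17.3% of all genes were called higher and 17.8% lower.

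Solyc06g074820 and Solyc08g066840 were compared within libraries, where no scaling of a library changes their ratio. The ratio of Solyc06g074820 to Solyc08g066840 was lower on drought days and higher in heat than in untreated leaves of the same table, a contrast between tables that was not tested. It had a median of 1.11 (0.991 to 1.72) on drought day 2 and 0.619 (0.494 to 1.04) on day 5, against 5.59 (4.23 to 7.84) on day 0, with the lowest and highest library in brackets. In heat the median ratio was 33.0 (21.3 to 37.2) for 2 h, 42.6 (16.0 to 67.2) after 12 h and 111 (70.6 to 748) after 24 h, against 7.17 (5.95 to 11.5) in untreated leaves. It was 6.18 (4.16 to 8.11) in re-watered leaves and 5.03 (3.58 to 6.21) in heat recovery, overlapping the untreated libraries of its own table in both. Solyc06g074820 held 95.2 ± 0.673% of the summed FPKM of the family at 24 h and 76.3 ± 4.90% in recovery, against 77.8 ± 3.85% at 0 h, while the sum itself was 1853 ± 152 FPKM after 2 h, 837 ± 309 FPKM after 24 h and 411 ± 83.9 FPKM after recovery, against 1027 ± 230.2 FPKM before (SD, n = 3).

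NIP6-1 (Solyc03g117050), of the nodulin-26-like group, was the 1 aquaporin outside the family that the sources used here paired with an identifier. It was not called on any of drought days 1 to 5. In heat it averaged 6.22 ± 0.864 FPKM at 2 h (log2 fold change 1.21, adjusted p = 0.0233) and 0.525 ± 0.111 FPKM at 12 h (log2 fold change -1.03, adjusted p = 0.0145, not called with median-ratio scaling), against 2.12 ± 0.305 FPKM at 0 h (SD, n = 3). In re-watered leaves it was called lower than on day 5 (log2 fold change -1.02, adjusted p = 0.0019), though not with median-ratio scaling.

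The genes with the most similar course were taken over group means as a description, with no test. Over the 7 drought group means, the gene closest to Solyc06g072130 among 14112 genes with a mean of 5 FPKM or more was Solyc04g016420 (r = 0.99973), and those closest to Solyc03g019820, Solyc06g074820, Solyc03g120470, Solyc06g060760 and Solyc08g066840 were Solyc08g069231 (r = 0.99791), Solyc03g111670 (r = 0.99939), Solyc05g053930 (r = 0.99448), Solyc05g008450 (r = 0.99767) and Solyc02g072180 (r = 0.99616). Over the 6 heat group means, with 11871 genes, the gene closest to Solyc03g120470 was Solyc08g007590 (r = 0.99755) and the gene closest to Solyc08g066840 was Solyc11g008810 (r = 0.99756). Those closest to Solyc06g060760, Solyc06g074820 and Solyc06g075650 were Solyc01g005000 (r = 0.98691), Solyc04g074430 (r = 0.98189) and Solyc08g048290 (r = 0.96539). Each r is the highest among all genes compared, over few points, so values near 1 can arise from this selection. None of these was another member of the family. The points share their libraries, and the identifiers carried no annotation.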

How the data were processed

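Gene expression was measured by RNA sequencing of total RNA from M82 leaves, in 21 drought and 18 heat libraries. The authors deposited 2 tables of FPKM values, 1 per series, made with Trimmomatic, TopHat and Cuffdiff as named in the submitters' processing notes, and each table was normalized on its own, so that no test was made between them. For the heat libraries the study's methods name the ITAG reference, strand-specific counting and 1 alignment kept per read, so reads shared by near-identical members may be counted for either. For the drought libraries these settings were not given in the sources used here. The drought table names its day 0 columns as controls without a number tied to a label, and the study's methods give a younger age for the heat plants than the labels. FPKM holds no counts, so the depth is unknown in absolute terms. From the step of low values, under 0.5 FPKM, it ranged from 0.535 to 1.46 among the drought libraries and from 0.921 to 1.35 among the heat libraries relative to the typical library.

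Genes at 1 FPKM or more in at least 3 libraries of a table were tested with limma 3.58.1 in R 4.3.3, with the empirical Bayes trend, on log2(FPKM + 1), in 1 fit over all groups of a table. Tests were two-sided, with Benjamini-Hochberg adjustment over all genes tested, and a gene was called at adjusted p values up to 0.05 where its log2 fold change was also 1 or more in size. This scale understates changes of low genes. The study's methods call the heat libraries biological replicates, while nothing says whether the drought libraries came from separate plants, and there p-values measure the spread between these libraries, which may be technical. The code was tested on simulated data. Alternatives were median-ratio scaling of the libraries, 0.1 FPKM added in place of 1, tests without the filter, a fit of the compared groups alone, each library left out in turn, 12 h and 24 h replicate 3 left out together, and the replicate number as a block.

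Earlier results of these data were known when the members and lists were chosen. The members were taken as a family list, and none of their measured values was used to choose them. The comparison of day 5 with day 1 was added after the values had been seen. Every member was named, called or not, with 4 heat-response genes and 2 abscisic acid genes as checks of the labels, the 22 antenna genes as leaf markers, NIP6-1 as another aquaporin, and the genes closest in course over group means among those with a mean of 5 FPKM or more. Lists of other aquaporins, tonoplast proton pumps and markers of other cell types were to come from the reference gene table, in which 0 of the identifiers matched among 41476 genes, so they were not analysed here, and no sequence is printed.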

Additional observations from a re-analysis of the deposited data

How the results depend on the processing

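Of 981 recomputed values of 86 member results, 933 kept their direction and their side of the threshold, 21 lost a call, 15 gained one and 12 changed sign. On drought days 1 to 5 against day 0, 378 of 378 kept both. The cause of the changes below was not tested. The number of members called at 2 h of heat, 0 as reported, was 1 with median-ratio scaling, 1 without 12 h replicate 3 and 24 h replicate 3, and 2 in the fit of the compared groups alone. At 4 h it was 0 as reported and 1 without those 2 libraries. In heat recovery against 0 h it was 4 as reported and 1 with median-ratio scaling. Leaving out single libraries gave 1 to 3 calls at 12 h, with 2 as reported, and 2 to 3 in recovery, with 4 as reported.

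Among log2 fold changes that changed sign, none was a call. Solyc06g060760 at 12 h was 0.57 without 12 h replicate 3 and 24 h replicate 3. Solyc06g074820 at 24 h was 0.27 without those libraries and 0.62 with median-ratio scaling, and Solyc08g066840 in recovery was 0.025 with median-ratio scaling. Over single libraries left out, Solyc03g019820 on day 5 against day 1 ran between -0.22 and 0.69, Solyc06g060760 at 12 h between -0.70 and 0.57 and in recovery against 24 h between -1.08 and 0.14. Solyc06g074820 ran between -0.21 and 0.36 at 12 h and between -0.29 and 0.27 at 24 h, and Solyc06g075650 at 4 h between -0.047 and 0.85.

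Genes called in all at 2 h numbered 1052 as reported, 1610 in the fit of the compared groups alone and 531 to 875 without single libraries. At 4 h there were 2936 as reported, 1745 with median-ratio scaling and 1827 to 3843 without single libraries. In recovery against 0 h there were 4649 as reported and 2580 with median-ratio scaling. The replicate numbers gave no clear pairing of the libraries. Deviations of libraries with the same number correlated at -0.132 to 0.188 over 24 pairs, and 8 of 24 libraries correlated best with their own number. In heat recovery against 24 h all 3 libraries did so, at r of 0.083, 0.068 and 0.018, so a pairing in single comparisons is not excluded. With the replicate block, Solyc06g075650 at 12 h (-1.32, adjusted p = 0.0229) and Solyc06g060760 at 24 h (-1.45, adjusted p = 0.0286) were called, and members called numbered 3 at both times in place of 2. No block could be fitted against drought day 0, whose columns carry no number tied to the labels. The 3 libraries a group and unknown absolute depth limit the statements on genes near 1 FPKM, which include Solyc06g072130 and Solyc03g019820 outside drought.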
